A study of Mus musculus with 6 samples.

Results

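Matricellular proteins are secreted into the extracellular matrix but mainly signal rather than bear load: they bind collagen, growth factors and cell-surface receptors such as integrins, CD36 and CD47. In the adult heart most of them are made at low levels, and fibroblasts and vascular cells make more of them when the wall is injured or overloaded. The 10 genes described here were chosen by symbol, with earlier results of these data known. They are the fibroblast genes Postn (periostin), Cilp and Cthrc1, the collagen-binding glycoprotein gene Sparc, and the thrombospondin genes Thbs1, Thbs2, Thbs4 and Comp. The glycoprotein genes Tnc (tenascin C) and Fn1 (fibronectin) complete the list. All 10 were found among the 18019 genes of the table.

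The RNA came from hearts of wild-type mice, 8 weeks after transverse aortic constriction (TAC), an operation that narrows the aorta and overloads the left ventricle. All 6 libraries are from hearts with TAC, so the effect of TAC itself was not compared. In the 3 VNS-TAC libraries (VNS stands for the vagal stimulation), the mice had received rAAV-ChAT-hChR2[H134R]-GFP in the dorsal vagal motor nucleus, a virus whose choline acetyltransferase promoter drives an ion channel opened by light, so that vagal preganglionic neurones can be stimulated. The columns of the VNS-TAC libraries are named X10Hz_TAC, read here as a rate of stimulation. The 3 Ctrl-TAC libraries are from mice given rAAV-ChAT-GFP, which has the same promoter and no channel. Strain, age and sex are not given in the labels, nor is it said that each library is from a separate animal. The p-values therefore reflect how far these libraries vary, and part of that variation may be technical. Values are FPKM, a level per length of gene and per library size, so that levels can be compared between genes.

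Of the 10 genes, 8 averaged 1 FPKM or more across all 6 libraries and entered the fit of 11422 genes, and each of these 8 was above 1 FPKM in the mean of both groups. In 7 of the 8, namely Postn, Thbs1, Comp, Cilp, Sparc, Thbs4 and Fn1, all 3 VNS-TAC libraries were below all 3 Ctrl-TAC libraries, and the mean in VNS-TAC was 24.6% (Postn) to 58.1% (Fn1) of that in Ctrl-TAC. In bulk tissue, fewer cells of a type and less RNA per cell cannot be told apart. Among all genes tested, 17.4% were lower without overlap and 8.01% higher without overlap, and 61.8% had a log2 fold change below 0. As the members were chosen with earlier results of these data known, these shares serve for description only. Thbs2 stood apart, with a mean in VNS-TAC that was 183% of that in Ctrl-TAC and 1 library of VNS-TAC at the control level. The remaining 2, Tnc and Cthrc1, were under 1 FPKM in all 6 libraries and overlapped.

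The fit was limma on log2(FPKM + 1) with Benjamini-Hochberg adjustment over all genes. No member passed an adjusted p of 0.05, nor did any gene of all 11422 (0%). At an unadjusted p under 0.05, 7 members were lower and 0 higher, against 11.3% lower and 3.79% higher over all genes. When limma weighted the libraries by how far each varied (array weights), 6 members had an adjusted p under 0.05, as had 8.9% of all genes. The median log2 fold change was -1.33 over the 8 members and -0.08 over all genes. An exact permutation test of 3 libraries against 3, 2-sided over 20 assignments, cannot give a p below 0.1, and the 7 lower members each gave 0.1.

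**Figure D1:**
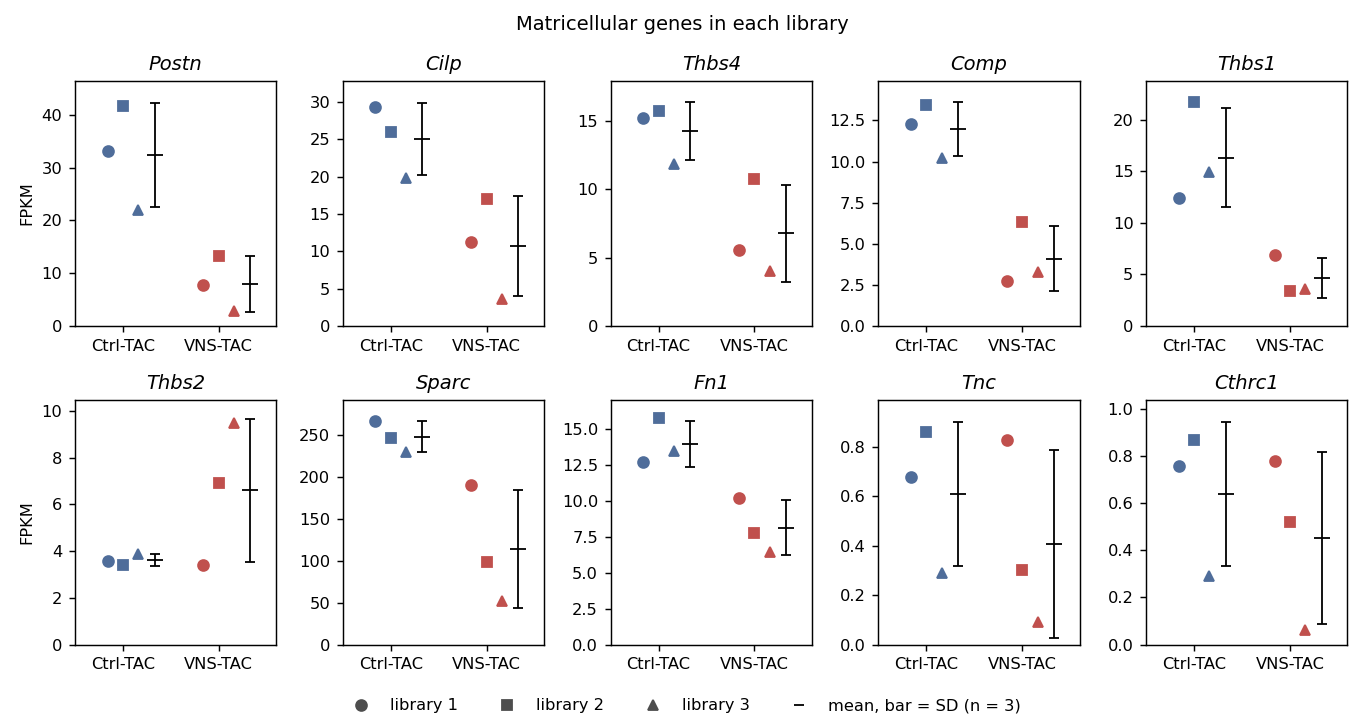
FPKM (vertical axes, linear from 0) of the 10 genes in each library, with the group on the horizontal axis, 1 symbol per library and the mean with its SD (n = 3). In 7 panels every VNS-TAC point is below every Ctrl-TAC point, in Thbs2 2 VNS-TAC points are above the controls, and Tnc and Cthrc1 overlap and stay under 1 FPKM.

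**Figure D2:**
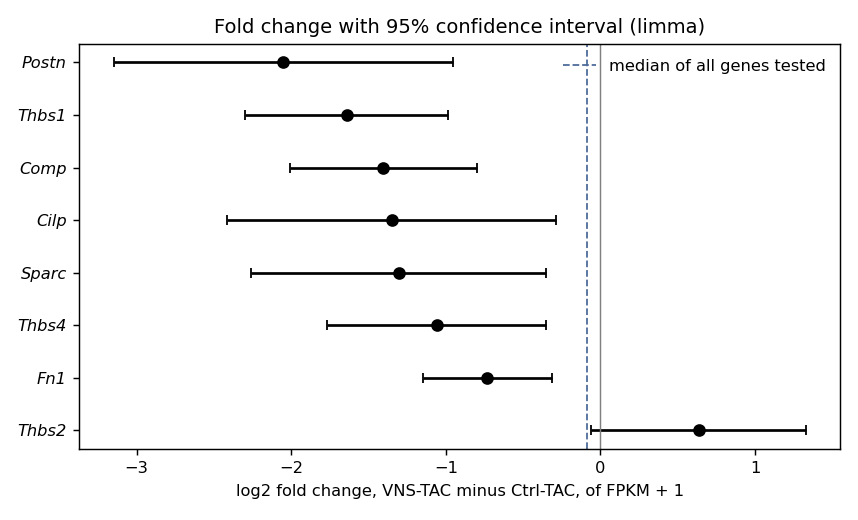
log2 fold change of VNS-TAC minus Ctrl-TAC on the log2(FPKM + 1) scale (horizontal axis) with its 95% confidence interval from limma for the 8 members tested, and the median of all genes at -0.08 as a dashed line. The intervals of 7 members lie below that line, from Postn at -2.05 to Fn1 at -0.73, and that of Thbs2 crosses 0.

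The bases just before the start of transcription are shown for 5 members: Postn, Cilp and Thbs4, which were highest in VNS-TAC 2 and lowest in VNS-TAC 3 among the VNS-TAC libraries, Sparc, which was highest in VNS-TAC 1, and Thbs2, the member that was higher on average. Each is 250 bases from RefSeq on GRCm38.p6, written 5′ to 3′ on the strand of the gene and ending at the base before the start. Capitals mark matches, on either strand, to 4 motifs. The AP-1 motif is TGANTCA. The motif of TEAD factors was written GGAATG. For SMAD factors it was CAGACA. The TATA box was searched as TATAAA.
Postn (chr3:54360857-54361106, plus strand): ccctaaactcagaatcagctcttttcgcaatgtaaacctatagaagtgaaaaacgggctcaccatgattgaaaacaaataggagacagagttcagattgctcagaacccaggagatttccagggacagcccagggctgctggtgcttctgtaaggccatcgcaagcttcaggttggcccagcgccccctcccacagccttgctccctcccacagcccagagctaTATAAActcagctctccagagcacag
Cilp (chr9:65264930-65265179, plus strand): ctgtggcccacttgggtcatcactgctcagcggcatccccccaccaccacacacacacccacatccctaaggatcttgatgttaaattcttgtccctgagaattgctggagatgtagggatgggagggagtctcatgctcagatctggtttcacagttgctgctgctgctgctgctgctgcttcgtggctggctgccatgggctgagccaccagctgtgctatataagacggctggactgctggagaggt
Thbs4 (chr13:92794819-92795068, minus strand): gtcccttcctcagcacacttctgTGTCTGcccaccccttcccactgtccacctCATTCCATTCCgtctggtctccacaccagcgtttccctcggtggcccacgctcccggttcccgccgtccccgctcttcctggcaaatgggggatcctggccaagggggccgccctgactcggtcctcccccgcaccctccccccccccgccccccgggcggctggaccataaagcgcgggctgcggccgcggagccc
Sparc (chr11:55420081-55420330, minus strand): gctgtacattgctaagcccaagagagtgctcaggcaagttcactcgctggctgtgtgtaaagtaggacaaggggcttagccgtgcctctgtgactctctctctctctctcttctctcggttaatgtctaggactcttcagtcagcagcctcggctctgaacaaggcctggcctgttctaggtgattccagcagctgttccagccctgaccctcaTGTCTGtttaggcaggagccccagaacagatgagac
Thbs2 (chr17:14694263-14694512, minus strand): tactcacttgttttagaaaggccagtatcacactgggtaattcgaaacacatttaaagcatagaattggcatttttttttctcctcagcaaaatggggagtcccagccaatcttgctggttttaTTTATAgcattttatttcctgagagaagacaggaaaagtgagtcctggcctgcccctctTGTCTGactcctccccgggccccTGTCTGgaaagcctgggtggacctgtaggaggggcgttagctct

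Postn holds a TATA box 26 bases before its start. RefSeq also gives Postn a start further upstream, which is not printed because the nearest GENCODE M21 transcript starts 1842 bases from it. Thbs4 holds the TEAD motif in 2 matches that share a base, both on the other strand, and the SMAD motif in 1. Sparc holds the SMAD motif in 1 match, 36 bases before the start. Thbs2 holds that motif in 2 matches, and a TATA box match on the other strand 126 bases before the start. The nearest GENCODE M21 start is 27 bases from this Thbs2 start, so its positions depend on the start used. That distance is 2 bases for the printed Postn start and 0 for Cilp, Thbs4 and Sparc. None of the 4 motifs as written matched in the Cilp window, and the AP-1 motif matched in none of the 5. Only the letters TATAAA were searched for the TATA box. A related string, such as the tatataag near the end of the Cilp window, was therefore not counted. Over all 32851 windows of the same length, the AP-1 motif was in 6.75%, the TEAD motif in 12.6%, the SMAD motif in 17.1% and the TATA box in 12.4%. A match is a string of letters in a window and not a measured binding site. Tnc has 2 windows, not printed, and no window was matched for Thbs1, Comp, Cthrc1 and Fn1.

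Postn (chromosome 3, 54359267 to 54391041, GRCm38.p6) encodes periostin, which activated fibroblasts secrete and which promotes collagen cross-linking. It was at 33.26, 41.75 and 22.04 FPKM in Ctrl-TAC 1, 2 and 3 and at 7.8, 13.3 and 2.77 FPKM in VNS-TAC 1, 2 and 3. The highest VNS-TAC library was thus below the lowest control, and VNS-TAC 3 had 8.56% of the control mean. The group means were 7.96 ± 5.27 against 32.4 ± 9.89 FPKM (SD, n = 3). Its log2 fold change was -2.05 ± 0.47 (SE), with a 95% interval of -3.15 to -0.96 (limma, adjusted p = 0.203).

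Cilp (chromosome 9, 65265180 to 65280614) encodes cartilage intermediate layer protein, a fibroblast product known to bind TGF-beta. Its FPKM values were 29.36, 26 and 19.81 in Ctrl-TAC and 11.26, 17.01 and 3.67 in VNS-TAC, in the order of the libraries. VNS-TAC 2 was close under the lowest control and VNS-TAC 3 far below it. The log2 fold change was -1.35 ± 0.45 (SE, limma, adjusted p = 0.264), and -0.79 when VNS-TAC 3 was left out.

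Cthrc1 (chromosome 15, 39076932 to 39087121), a secreted protein of collagen-producing fibroblasts, was at 0.76, 0.87 and 0.29 FPKM in Ctrl-TAC and at 0.78, 0.52 and 0.06 in VNS-TAC. By the estimated depth, these are about 1.45 to 19.8 fragments per library, so little can be read from them. The groups overlapped. With no filter, its log2 fold change was -0.19, with a 95% interval of -0.72 to 0.34 (limma), which does not show that the groups were alike.

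Sparc (chromosome 11, 55394159 to 55420080) encodes a collagen-binding glycoprotein, also called osteonectin, that assists the assembly of secreted collagen. It had the highest level of the 10 genes in every library. In Ctrl-TAC it was at 267.55, 246.85 and 230.44 FPKM, a tight group, and in VNS-TAC at 190.74, 98.81 and 52.4 FPKM. Within VNS-TAC the highest library was 3.64 times the lowest, against 1.16 times in Ctrl-TAC. The log2 fold change was -1.30 ± 0.41 (SE, limma, adjusted p = 0.251), and it was -0.85 without VNS-TAC 3.

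The thrombospondins are calcium-binding glycoproteins. Thbs1 and Thbs2 carry the repeats that inhibit angiogenesis through CD36, and THBS1 is known to activate latent TGF-beta, while Thbs4 and Comp lack those repeats. Thbs1 (chromosome 2, 118111876 to 118127133) was at 12.42, 21.69 and 14.91 FPKM in Ctrl-TAC and at 6.88, 3.37 and 3.64 FPKM in VNS-TAC. All VNS-TAC values were well under the lowest control. Its log2 fold change of -1.64 ± 0.28 (SE), with a 95% interval of -2.30 to -0.98, had the smallest adjusted p of the members (limma, adjusted p = 0.163).

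Thbs2 (chromosome 17, 14665500 to 14694262) was at 3.56, 3.39 and 3.88 FPKM in Ctrl-TAC and at 3.4, 6.92 and 9.5 FPKM in VNS-TAC. VNS-TAC 1 lay among the controls, whereas VNS-TAC 2 and VNS-TAC 3 were at 192% and 263% of the control mean. The log2 fold change was 0.64 ± 0.30 (SE), with a 95% interval of -0.06 to 1.33 (limma, adjusted p = 0.356). It was 0.36 without VNS-TAC 3 and 0.99 without VNS-TAC 1. With quantile normalization or with the trend over GC content removed, all 3 VNS-TAC libraries were above the controls.

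Thbs4 (chromosome 13, 92751586 to 92794818), which in the heart is induced by pressure overload, was at 15.25, 15.76 and 11.83 FPKM in Ctrl-TAC and at 5.54, 10.78 and 4 in VNS-TAC. VNS-TAC 2 was just under the lowest control. The log2 fold change was -1.06 ± 0.30 (SE, limma, adjusted p = 0.244). Comp (chromosome 8, 70373548 to 70382066), cartilage oligomeric matrix protein, was at 12.3, 13.43 and 10.2 FPKM in Ctrl-TAC and at 2.71, 6.33 and 3.27 in VNS-TAC. The groups were further apart than for Thbs4, with a log2 fold change of -1.40 ± 0.26 (SE, limma, adjusted p = 0.179).

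Taking in Thbs3, which was at 3.44 to 5.01 FPKM in VNS-TAC and 3.71 to 4.72 in Ctrl-TAC, the 5 thrombospondin genes summed to 26.6 ± 5.04 FPKM in VNS-TAC and 50.4 ± 6.63 in Ctrl-TAC (SD, n = 3). The make-up of the sum also differed. Thbs2 made up 14.5%, 21.3% and 39.8% of it in VNS-TAC 1, 2 and 3. In Ctrl-TAC 1, 2 and 3 it made up only 7.45%, 5.85% and 8.52%, with no overlap (exact permutation p = 0.1, the smallest possible). This share also rises when Thbs1, Thbs4 and Comp are lower, so it is not separate from their values. In VNS-TAC 1 Thbs2 was at 3.4 FPKM, among the controls, while the sum was 23.5 FPKM. The ratio of Thbs1 to Thbs2 does not depend on how a library is scaled, apart from the added 1 FPKM. On the log2 scale it was 0.84, -0.86 and -1.18 in VNS-TAC, and in Ctrl-TAC it was 1.56, 2.37 and 1.70, a difference of -2.28 without overlap (exact permutation p = 0.1). The ratio of Thbs4 to Thbs1 overlapped, with a difference of 0.58 (exact permutation p = 0.5) that was 0.08 without VNS-TAC 2.

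**Figure D3:**
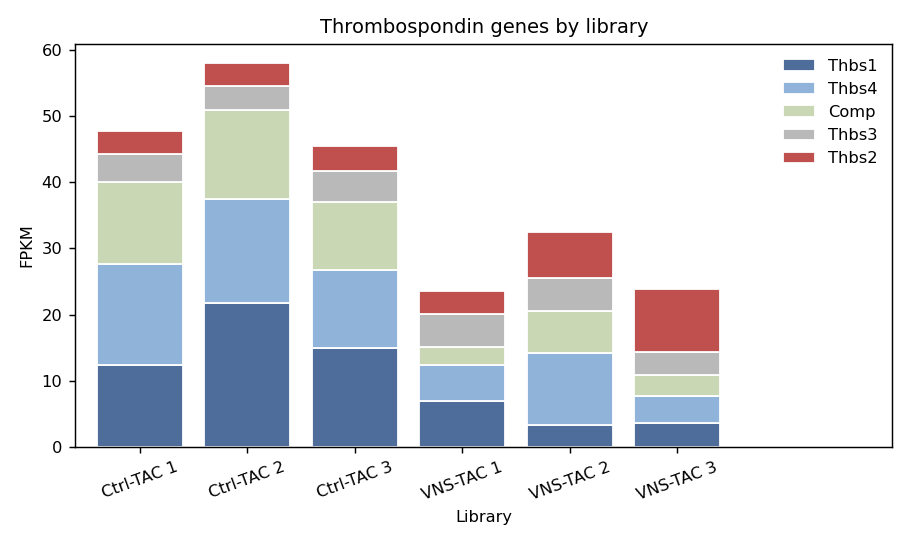
Stacked FPKM (vertical axis, from 0) of Thbs1, Thbs4, Comp, Thbs3 and Thbs2 in each library (horizontal axis), each block being the level of 1 gene. The stacks reach 45.5 to 58.0 FPKM in Ctrl-TAC and 23.5 to 32.4 in VNS-TAC, and the Thbs2 block at the top is thickest in VNS-TAC 3, at 9.5 FPKM.

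Fn1 (chromosome 1, 71585473 to 71653280) encodes fibronectin, the adhesive protein on which other matrix proteins are laid down and to which integrins bind. It was at 12.69, 15.73 and 13.41 FPKM in Ctrl-TAC and at 10.19, 7.73 and 6.4 FPKM in VNS-TAC. The groups did not overlap, and of the 7 lower members it differed least, with a log2 fold change of -0.73 ± 0.18 (SE, limma, adjusted p = 0.221). The VNS-TAC libraries were also most alike in Fn1, the highest being 1.59 times the lowest.

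Tnc (chromosome 4, 63959785 to 64047015), tenascin C, is a glycoprotein that is scarce in the healthy adult heart and appears at sites of injury. It was at 0.68, 0.86 and 0.29 FPKM in Ctrl-TAC and at 0.83, 0.3 and 0.09 FPKM in VNS-TAC. Both groups spread widely and overlapped, and the lowest value rests on about 10.6 fragments by the estimated depth. With no filter the log2 fold change was -0.21, with a 95% interval of -0.73 to 0.31 (limma). The log2 ratio of Tnc to Fn1, with 1 FPKM added to each, was -2.61 to -2.76 in VNS-TAC and -3.03 to -3.48 in Ctrl-TAC (exact permutation p = 0.1). With 0.1 FPKM added, the difference went from 0.52 to 0.11 (exact permutation p = 0.9). The ratio thus depends on the value added and does not show a change in Tnc.

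By annotation (GENCODE M21), Thbs1, Tnc and Fn1 each overlap an antisense gene, Gm29233, 8030451A03Rik and Apol7d. None of those symbols is in the table. Whether the counting used strand is not given in the sources used here, so fragments of each pair cannot be told apart.

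The order of levels differed between the groups. In Ctrl-TAC, Sparc (mean 248 FPKM) stood alone, followed by Postn (32.4), Cilp (25.1), Thbs1 (16.3), Thbs4 (14.3), Fn1 (13.9) and Comp (11.98), each overlapping its neighbour. Thbs2 (3.61) then came alone, and Cthrc1 (0.64) and Tnc (0.61) overlapped at the bottom. In VNS-TAC, Sparc (114) again stood alone. Below it Cilp (10.7), Fn1 (8.11), Postn (7.96), Thbs4 (6.77), Thbs2 (6.61), Thbs1 (4.63) and Comp (4.10) each overlapped the next, so that Thbs2 was within the range of genes it lay clearly under in Ctrl-TAC. No test was run on these orders.

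The VNS-TAC libraries did not differ from the controls in the same genes to the same degree. On the log2(FPKM + 1) scale and relative to the Ctrl-TAC mean, the mean over the 8 members tested was -0.99, -0.77 and -1.58 in VNS-TAC 1, 2 and 3. Postn, Cilp and Thbs4 were highest in VNS-TAC 2 and lowest in VNS-TAC 3. Sparc and Fn1 were highest in VNS-TAC 1 and lowest in VNS-TAC 3, as were Tnc and Cthrc1 and all 6 fibrillar collagen genes tested. Comp was highest in VNS-TAC 2 and lowest in VNS-TAC 1, Thbs1 highest in VNS-TAC 1 and lowest in VNS-TAC 2, and Thbs2 highest in VNS-TAC 3 and lowest in VNS-TAC 1. Among all genes tested with a symbol, 8.05% had the pattern of Postn, 24% that of Sparc and 36.1% that of Thbs2. In Sparc, VNS-TAC 1 was only 0.38 below the control mean, while in Postn it was 1.88 below it.

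**Figure D4:**
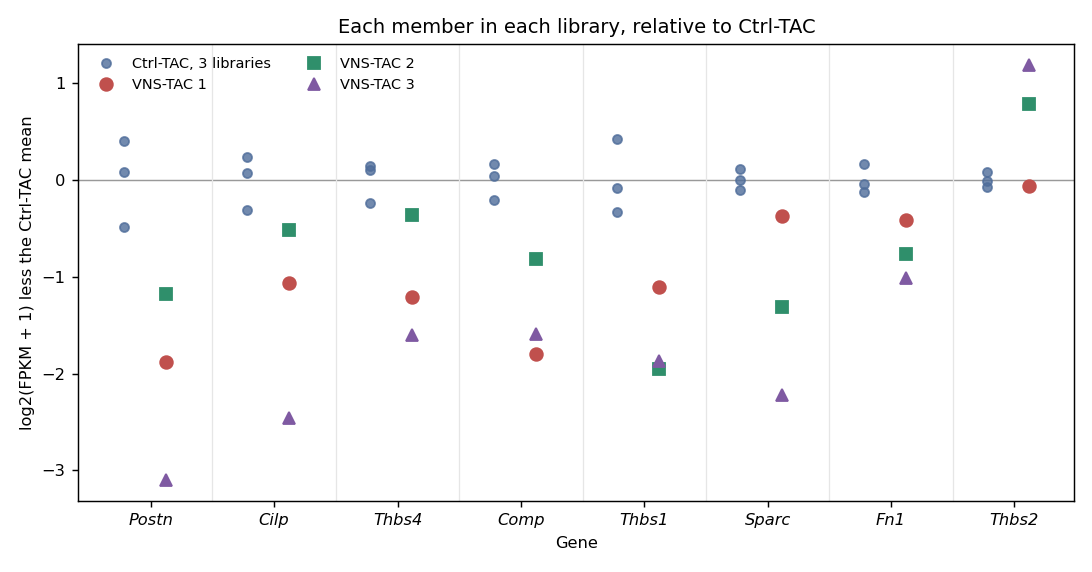
Difference of log2(FPKM + 1) from the Ctrl-TAC mean (vertical axis) for the 8 members tested (horizontal axis), with the 3 Ctrl-TAC libraries as blue dots and each VNS-TAC library as its own symbol. VNS-TAC 2 is nearest to the controls in Postn, Cilp, Thbs4 and Comp, and VNS-TAC 1 in Thbs1, Sparc, Fn1 and Thbs2.

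Levels also varied with the GC content of transcripts, in some libraries more than in others. The log2 level of a gene less its mean over libraries was set against GC content across genes, which are not independent replicates, and Spearman's rho was 0.568 for VNS-TAC 1. It was 0.0238 and -0.102 for VNS-TAC 2 and 3, and -0.322, -0.433 and -0.103 for Ctrl-TAC 1, 2 and 3. All 3 VNS-TAC libraries were thus above all 3 controls, although VNS-TAC 3 and Ctrl-TAC 3 were nearly equal. The longest coding transcripts of the 8 members tested run from 44.1% GC in Postn to 59.9% in Comp. With the GC trend removed, Postn in VNS-TAC 1 went from -1.88 to -1.40 relative to the Ctrl-TAC mean and Comp in that library came to -1.92, and the highest and the lowest VNS-TAC library stayed the same for all 8 genes. With quantile normalization the lowest library of Comp became VNS-TAC 3, at -1.57, with VNS-TAC 1 at -1.54.

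Markers of cell types were set beside these values. Over all genes tested, 61.8% had a log2 fold change below 0, and 17.4% were lower and 8.01% higher without overlap. At an unadjusted p under 0.05 (limma), 11.3% were lower and 3.79% higher. The counts in this list and in all lists that follow are to be read beside these shares. Of 12 fibroblast identity genes, 10 were lower and 5 of these did not overlap between groups, and their median log2 fold change was -0.36. Their summed level was 930 to 1329 FPKM in VNS-TAC and 1330 to 1343 in Ctrl-TAC, with none at 0, and most of the sum was Gsn and Dcn. Dcn, which fibroblasts make in quantity, had 151.6 FPKM in VNS-TAC 1, 240.79 in VNS-TAC 2 and 387.71 in VNS-TAC 3, while the controls lay between 256.82 and 285.31. The mean of the list on the log2 scale, relative to Ctrl-TAC, came to -0.36, -0.38 and -0.89 for VNS-TAC 1, 2 and 3.

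Set against that mean within the same library, and relative to Ctrl-TAC, Postn was at -1.52, -0.79 and -2.21 in VNS-TAC 1, 2 and 3, Thbs1 at -0.74, -1.57 and -0.97 and Comp at -1.44, -0.43 and -0.70. These 3 members stayed below all controls on this measure. The other 4 lower members overlapped the controls through 1 library: Cilp with -0.13 and Thbs4 with 0.02 in VNS-TAC 2, and Sparc with -0.02 and Fn1 with -0.05 in VNS-TAC 1. Thbs2 was above all controls, at 0.29, 1.16 and 2.08 against -0.11 to 0.12. No test was run on these values.

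Comp and Cilp are also made in tendon, cartilage and valves. Of 9 markers of those tissues 5 were tested, of which 3 were lower without overlap and 2 were higher with overlap. Without Sox9, which reached 1 FPKM only in the Ctrl-TAC mean, 2 were lower and 2 higher. Their summed level was 34.3 to 55.3 FPKM in VNS-TAC and 42.6 to 56.8 in Ctrl-TAC, and Tnmd and Col2a1 were at 0 in at least 1 library. Cytl1 was at 14.9, 16.84 and 8.28 FPKM in VNS-TAC, below the 19.43 to 22.58 of the controls, and Prg4 at 15.9 ± 13.0 against 7.88 ± 0.81 (SD, n = 3). Fmod, with the smallest unadjusted p of the list (limma), was at 1.6, 2.81 and 0.9 FPKM in VNS-TAC, against 5.91 to 7.19 in Ctrl-TAC. The 2 higher genes were Prg4 and Scx, the latter at 12.2 ± 2.03 against 11.3 ± 4.98. Of the untested markers, Tnmd was at 0.05, 0 and 0.1 FPKM against 0.84 to 1.13. Chad was at 0.34 ± 0.06 against 1.06 ± 0.55, also without overlap. Acan and Col2a1 were at 0.17 FPKM or less throughout. Smooth muscle and pericyte markers, cells that also make thrombospondins, were lower in 8 of 8, with 2 at an unadjusted p under 0.05 (sum 139 to 204 against 206 to 298 FPKM). The top of the control range was Ctrl-TAC 2. Ctrl-TAC 1 and 3 summed to 206 and 221.5 FPKM, close to the 203.5 of VNS-TAC 2. Platelet markers, which bear on Thbs1, summed to 11.3 to 34.6 against 22.6 to 25.1 FPKM, mostly Pf4. Of the neutrophil markers 5 were tested and were higher at an unadjusted p under 0.05, but Retnlg and Ngp reached 1 FPKM only in the VNS-TAC mean, which leaves 3. The neutrophil list summed to 47.4 to 102 FPKM in VNS-TAC and 2.49 to 6.33 in Ctrl-TAC, mostly S100a9 and S100a8, with Ngp, Camp and Ly6g at 0 in some Ctrl-TAC libraries. The 6 red blood cell markers summed to 1503 FPKM in VNS-TAC 1 and 25.1 in VNS-TAC 3, with 183 to 578 in Ctrl-TAC. The part of these cell types in the values of the members was not tested.

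The remaining markers were those of cardiomyocytes (sum 46130 to 71910 FPKM in VNS-TAC, 54730 to 56590 in Ctrl-TAC, all 10 above 0, as a heart sample should hold), endothelial cells (319 to 389 against 385 to 436), macrophages (238 to 455 against 349 to 381), atrial cardiomyocytes (3858 to 9129 against 3071 to 9918), mesothelium and epicardium (4.10 to 14.5 against 4.82 to 11.2), adipocytes (2.64 to 25.4 against 9.30 to 64.5) and Schwann cells (3.29 to 4.44 against 4.86 to 6.10). At an unadjusted p under 0.05, 1 cardiomyocyte and 2 endothelial genes were lower, and no gene of the other 5 lists in either direction. Bmp10 of the atrial list and Lep of the adipocyte list were each at 0 in at least 1 library.

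Other matricellular genes, 17 of them in the table and 15 tested, were lower in 14 cases, 6 of these at an unadjusted p under 0.05 and 0 after adjustment (limma), with a median log2 fold change of -0.38. Cilp2, which is among the 6, reached 1 FPKM only in the Ctrl-TAC mean, and without it 5 of 14 were lower at that p. Smoc2, a relative of Sparc, was at 34.63, 29.32 and 16.72 FPKM in VNS-TAC, against 54.97, 50.89 and 51.47 in Ctrl-TAC. Sparcl1, the closest relative of Sparc, was at 89.75, 103.12 and 53.21 FPKM in VNS-TAC, against 138.36, 146.41 and 131.2 in Ctrl-TAC. Ccn1, a ligand of integrins that responds to stretch, was at 91.11, 35.69 and 31.64 FPKM against 94.55, 108.84 and 126.68. In all 3 genes the groups did not overlap, and in Ccn1 VNS-TAC 1 was near the lowest control.

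Of the receptors that bind these proteins, 15 of 17 were tested, 12 were lower, 7 of these at an unadjusted p under 0.05 and 0 after adjustment (limma), with a median log2 fold change of -0.29. Itga8, which is among the 7, reached 1 FPKM only in the Ctrl-TAC mean and Itgb3 only in the VNS-TAC mean, and without them 6 of 13 were lower at that p. Itgb1, the beta subunit shared by the receptors for fibronectin and tenascin, was at 57.5 ± 8.05 FPKM in VNS-TAC and 92.4 ± 11.1 in Ctrl-TAC (SD, n = 3). Itga9, the alpha subunit of a tenascin receptor, was at 16.42, 13.7 and 5.08 FPKM against 28.68, 30.72 and 23.32. Stab1, a scavenger receptor that takes up SPARC, was at 9.12 ± 2.60 against 14.5 ± 1.17 FPKM. Neither of the thrombospondin receptors Cd47 and Cd36 separated the groups: Cd47 was at 17.06, 18.96 and 32.66 FPKM against 16.51 to 17.63, and Cd36 at 234.65, 419.91 and 422.58 against 336.29 to 452.99. These 2 were named after their values were seen.

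Enzymes and partners that process or cross-link these proteins were mixed, with 5 of 10 tested genes lower and 5 higher. At an unadjusted p under 0.05, 4 were lower and 1 higher, with 0 after adjustment (limma), and the median log2 fold change was -0.10. Mmp2, a gelatinase that is also on the fibroblast identity list, was at 22.9 ± 4.66 FPKM against 40.3 ± 2.82 (SD, n = 3), and Adamts1, a protease known to cleave THBS1, at 14.9 ± 3.20 against 24.5 ± 4.08. Furin, a proprotein convertase, was the gene that was higher, at 43.6 ± 3.20 FPKM against 33.7 ± 3.17.

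Genes of activated fibroblasts, the cells that make periostin, were lower in 10 of 10 tested (12 in the table), 7 of them at an unadjusted p under 0.05 and 0 after adjustment (limma), with a median log2 fold change of -0.76. Fap reached 1 FPKM only in the Ctrl-TAC mean, and without it 6 of 9 were lower at that p. Meox1, a transcription factor of activated fibroblasts, was at 17.01, 7.54 and 2.85 FPKM in VNS-TAC, against 38.13, 32.47 and 23.16 in Ctrl-TAC. Mfap4 was at 10.9 ± 6.20 FPKM against 34.2 ± 5.53, and Fap, a surface protease, at 0.61 ± 0.20 against 1.59 ± 0.41 (SD, n = 3). The fibrillar collagens were lower in 6 of 6 tested, 4 at an unadjusted p under 0.05 and 0 after adjustment (limma), with a median of -0.91, and of these Col5a2 was at 5.21 ± 0.67 against 9.96 ± 1.73, Col1a2 at 23.9 ± 12.2 against 53.6 ± 0.89 and Col3a1 at 24.2 ± 21.2 against 59.7 ± 11.3 FPKM. In Col3a1 the groups overlapped through VNS-TAC 1.

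TGF-beta induces several of the members, Fn1, Postn and Thbs1 among them. Of 9 TGF-beta ligands and targets, 8 were lower, 5 of them at an unadjusted p under 0.05 and 0 after adjustment (limma), with a median log2 fold change of -0.49. Tgfb3 was at 6.66 ± 0.61 against 12.5 ± 0.85 and Tgfb2 at 3.39 ± 0.17 against 5.84 ± 1.37 FPKM (SD, n = 3).

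Genes outside the list that followed a member most closely over the 6 libraries were found by Pearson's r of log2(FPKM + 1), given as a description, since any gene that separates the groups scores high and 221 to 749 genes were above 0.9 for each member. The nearest gene was Ift20 for Postn (r = 0.996), Adamtsl2 for Cilp (0.998), Aplnr for Sparc (0.999), Itgbl1 for Comp (0.997), Pm20d2 for Thbs4 (0.993), Ppp1r18 for Thbs1 (0.993), Mrs2 for Fn1 (0.998) and Trp53bp2 for Thbs2 (0.996). Some of these differed between groups by at least as large a log2 fold change as the member itself: Aplnr, the apelin receptor, was at 3.68 FPKM in VNS-TAC and 14.2 in Ctrl-TAC, Adamtsl2, a matrix glycoprotein, at 6.43 and 17.6, and Itgbl1 at 2.75 and 8.77 FPKM. Ift20, a protein of cilia, matched the shape of Postn but not its size, with 22.5 FPKM in VNS-TAC and 28.5 in Ctrl-TAC. The mean of the 8 members was nearest to Lman1, Rida, Myh10, Poglut3 and Pkd2l2 (r of 0.994 to 0.997).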

How the data were processed

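The authors deposited 1 table of FPKM values, per the file headers, to 2 decimals for 18019 NCBI gene IDs in 6 columns. The submitters' processing notes list HISAT, featureCounts 1.5.0-p3, DESeq 1.8.3 and GRCm38 but no roles. The gene models and counting options were not given in the sources used here. Per the labels' protocols, oligo-dT beads selected the messenger RNA. Groups come from the sample titles, because the treatment tag reads VNS for every sample. The table numbers the VNS-TAC columns 1 to 3, whereas library names in the labels run from 4 to 6. They were treated as unpaired libraries of that group and keep the table's numbers.

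Symbols came from RefSeq (GRCm38.p6) for 17890 IDs and from GENCODE M21 for 15, and 114 had none. FPKM carry no library size. The steps of low values put each library at roughly 13680000 to 15900000 fragments, with a weak periodicity of 0.163 to 0.193. These estimates entered no test and serve only to give approximate fragments, with exon lengths from GENCODE.

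The 11422 genes that averaged 1 FPKM or more were fitted with limma 3.58.1 in R 4.3.3 on log2(FPKM + 1) with an intensity trend, 2-sided, with Benjamini-Hochberg adjustment over all of them and a threshold of 0.05. That scale understates fold changes of low genes. The script was tested on simulated data. Python 3.11.15, pandas 2.3.3, numpy 2.4.6 and matplotlib 3.10.9 served for tables and figures. The members and all gene lists were chosen with earlier results of these data known. Named genes are all members and the 3 with the smallest p of each pathway list. Up to 2 of the highest markers of a cell type and the genes nearest in Pearson's r were also named. The others were chosen after their values were seen. They are Cd47, Cd36, Fmod, Scx, Tnmd, Chad, Acan, genes at 0 and genes that reached the filter in 1 group only. Where the rule named an item that is withheld, it is not reported here. Alternatives were other pseudocounts, filters and scalings, other forms of limma, removal of a GC trend (GC content was known for 96.8% of genes) and each library left out.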

Additional observations from a re-analysis of the deposited data

How the results depend on the processing

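The 7 lower members stayed lower, and Thbs2 higher, in all 17 alternatives. The number of members with an adjusted p under 0.05 (limma) went from 0 to 6 with array weights (Postn, Thbs1, Thbs2, Sparc, Comp and Fn1), against 8.9% of all genes in that fit, and it was 0 in the other 16. That fit counts VNS-TAC 2 with a weight of 2.82, and VNS-TAC 1 and 3 with only 0.246 and 0.247. The median log2 fold change of the members was -0.88 with array weights, and -1.45 to -0.82 with each library left out, the smallest change being that without VNS-TAC 3. The members lower at an unadjusted p under 0.05 numbered 6 or 7, and those without overlap in either direction 7 or 8. Where it was 8, the added member was Thbs2, which was higher. The shares of all genes at these marks were taken from the main fit only. With a library left out, groups separate more easily, so the counts cannot be set against those shares. Scaling by size factors or quantile normalization moved the median of all genes from -0.08 to -0.02 and 0.01, and that of the members to -1.25 and -1.27. With each library left out, the log2 ratio of Thbs1 to Thbs2 differed by -2.90 to -1.89 and that of Postn to Sparc, which overlapped with a difference of -0.75 (exact permutation p = 0.3), by -1.19 to -0.37. No paired analysis was possible because columns and library names number the VNS-TAC libraries differently, which leaves a replicate block undefined. The cause of these shifts was not tested. No protein sequences were analysed here. Depth limits Tnc and Cthrc1, which rest on few fragments.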
